A study of Rattus norvegicus with 14 samples.

Results

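The comparison is that of indomethacin with its solvent DMSO in IEC-6 cells, a non-transformed cell line that was derived from the epithelium of rat small intestine. It rests on 4 of the 14 arrays of the series, namely both indomethacin arrays and the 2 DMSO arrays whose labels carry the same suffix b. Cell monolayers had been kept for 72 h in 100 µM indomethacin or in DMSO alone. The other drug arrays with the suffix, 2 with 100 µM NS-398 and 2 with 1 µM SC-560 for the same 72 h, served to estimate the spread and for 2 further comparisons. Both indomethacin arrays carry the suffix, and the 6 arrays of the other groups without it were left out. The sources used here do not say what the suffix stands for. The submitters state that indomethacin and NS-398 slow the migration of these cells, that SC-560 lacks this effect, and that cultures were pooled and the pool put on several chips. What the p-values set a difference against is thus the variation from array to array, some or all of it possibly technical, in 1 cell line.

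Indomethacin blocks cyclooxygenase-1 and cyclooxygenase-2, the enzymes that turn arachidonic acid into prostaglandins. Prostaglandin E2 acts on the intestinal epithelium through receptors such as EP4 and helps to maintain and repair the mucosa, which is why loss of prostaglandins is held to be a part of the intestinal injury caused by these drugs. Epithelial cells also answer chemical stress through pathways with well-known target genes: the unfolded protein response to misfolded protein in the endoplasmic reticulum (ER), the ATF4 response to shortage of amino acids, and the NRF2 response to oxidants.

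Cell type markers were checked first. Of 20 epithelial markers on the array, 7 reached a signal of 100 on all 4 arrays, among them the cadherin Cdh1 (3444 and 3118 with indomethacin, 3295 and 3015 with DMSO), the keratin Krt8 and the intestinal transcription factor Cdx2. Another 9, with Epcam, Krt18, Cldn3 and the brush border genes Alpi, Si and Fabp2 among them, stayed under 100 on all 4. Mesenchymal genes were high as well, and Vim had signals of 21670.3 and 22488 with indomethacin and 22214 and 21944 with DMSO. The summed signal of 12 fibroblast markers was 116464 and 121116 with indomethacin and 119301 and 115397 with DMSO. Of these 12 markers 7 reached 100 on all 4 arrays, while 5 stayed under 100 on all 4, namely Pdgfra, Pdgfrb, Thy1, Fap and Lum. None of 9 leukocyte markers reached 100 on all 4 arrays, and their sums were 313 and 422 with indomethacin and 330 and 311 with DMSO. Of 7 endothelial markers Tek alone reached 100 on all 4, with sums over the list of 1003 and 935 against 859 and 810.

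Signals of 100 or more on at least 2 of the 4 arrays were found for 16074 probe sets, which represent 9281 named genes. Differences are given as log2 differences with their standard errors after the addition of 50 to each signal, so that those of weak genes are understated. The 2 indomethacin arrays differed from each other by a median of 0.108 on this scale and the 2 DMSO arrays by 0.106, against 0.136 between the means of the groups. In limma, with Benjamini-Hochberg adjustment over all probe sets tested, 1256 probe sets (7.81%) passed an adjusted p of 0.05, 674 higher and 582 lower with indomethacin. The background against which the gene lists are read is 805 genes called of 9281 (8.67%), 426 higher (4.59%) and 379 lower (4.08%), with a median log2 difference of -0.002 over all genes. Most differences were small: 191 of the genes (2.06%) were called with at least 1.5-fold and 37 (0.399%) with at least 2-fold. Leaving out DMSO array 1b or 2b gave 294 or 697 called probe sets, and leaving out indomethacin array 1b or 2b gave 484 or 360. A fit of all 14 arrays with a term for the label set, called the 14-array fit from here, gave 610 probe sets, and a fit without the intensity trend gave 345. Both are given beside many, but not all, of the lists and genes whose calls they ended. A call without such a mention may thus have been lost in them. The arrays that the 14-array fit adds hold no indomethacin. Apart from the spread, they change its difference from DMSO only by taking drug effects to be the same in both label sets. Whether they are the same was not tested, so a call lost in that fit may reflect the other drugs. Of the tested probe sets 333 reached 100 on both arrays of 1 group and on neither of the other, 36 of them called, and such probe sets were tested only because 1 group was high. As a check of RNA quality, the beta-actin control had a 3' to 5' ratio of 1.250 and 1.232 with indomethacin and 1.338 and 1.267 with DMSO, and the part of this ratio in the results was not tested.

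**Figure D1:**
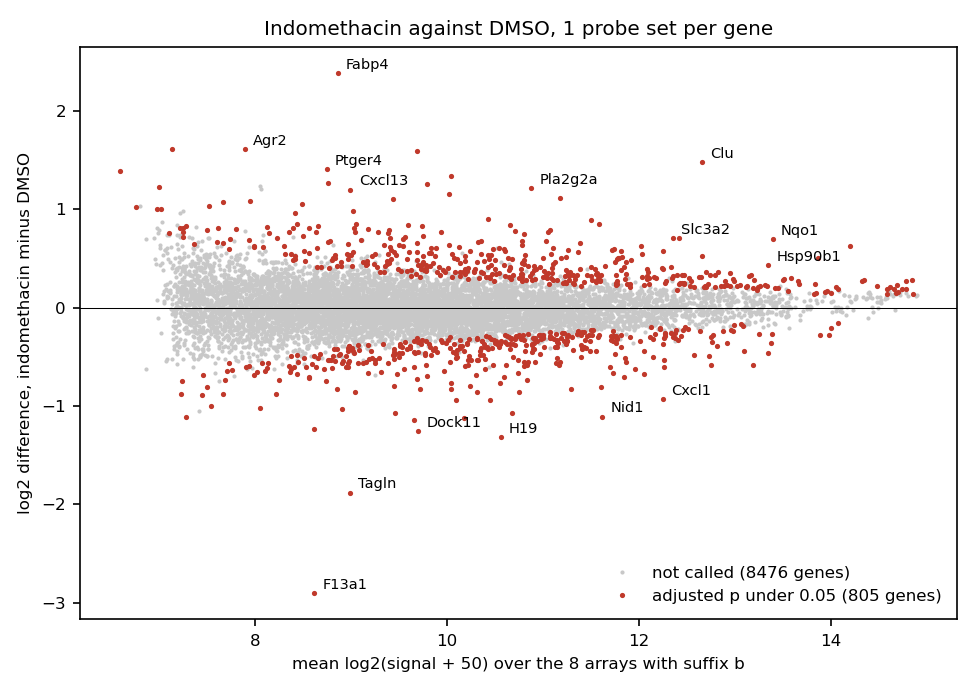
Log2 difference between indomethacin and DMSO (vertical axis) against the mean log2 signal (horizontal axis) for each of 9281 genes, with 805 genes at an adjusted p under 0.05 in red. Fabp4 lies highest at 2.39 and F13a1 lowest at -2.90, while called genes of high signal differ by less.

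The genes of prostaglandin synthesis and response, on which the drug acts, were examined as the first group. Of 15 tested, 3 were higher, 1 was lower and the others were not called. Ptgs1, the gene of cyclooxygenase-1, was not tested because its highest signal on the 4 arrays was 42.0. Ptgs2, the gene of cyclooxygenase-2, had signals of 1025 and 1072 with indomethacin and 1386 and 1416 with DMSO. The indomethacin arrays lay below both DMSO arrays, and the groups did not overlap in 57.3% of all genes in either direction. Ptgs2 fell by 0.40 ± 0.10 (limma adjusted p 0.0386). Dropping any 1 of the 4 arrays ended this call, with adjusted p-values from 0.122 to 0.165.

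Ptger4, which encodes the prostaglandin E2 receptor EP4, moved the other way. Its signals were 513 and 679.8 with indomethacin and 156 and 234 with DMSO. Both indomethacin arrays exceeded both DMSO arrays by more than the DMSO arrays differed, and the log2 difference was 1.41 ± 0.17 (adjusted p 0.000831). Signals with SC-560 were 265 and 239, below indomethacin (1.09 ± 0.17), and those with NS-398 overlapped indomethacin at 616 and 748. Secreted phospholipases A2 release fatty acids from membranes, and Pla2g2a of this family had signals of 3330.0 and 2944 with indomethacin against 1252 and 1392 with DMSO (1.22 ± 0.093, adjusted p 5.07e-05). It was also higher than with NS-398, at 1740.3 and 1545 (0.91 ± 0.093, adjusted p 0.000172). Pla2g5, a second secreted phospholipase outside the list, rose by 1.05 ± 0.14 from 210.5 and 194 to 484 and 465. Akr1b1, an aldose reductase that can also make prostaglandin F2 alpha, rose by 0.29 ± 0.044. Ptger4, Pla2g2a, Pla2g5 and Akr1b1 remained called with each of the 4 arrays dropped in turn. In the 14-array fit Ptger4 and Akr1b1 were not called (adjusted p 0.0594 and 0.0871), so that Pla2g2a was the 1 list member higher and none was lower. Without the intensity trend 2 were higher and none lower, Akr1b1 being lost again (0.0865).

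**Figure D2:**
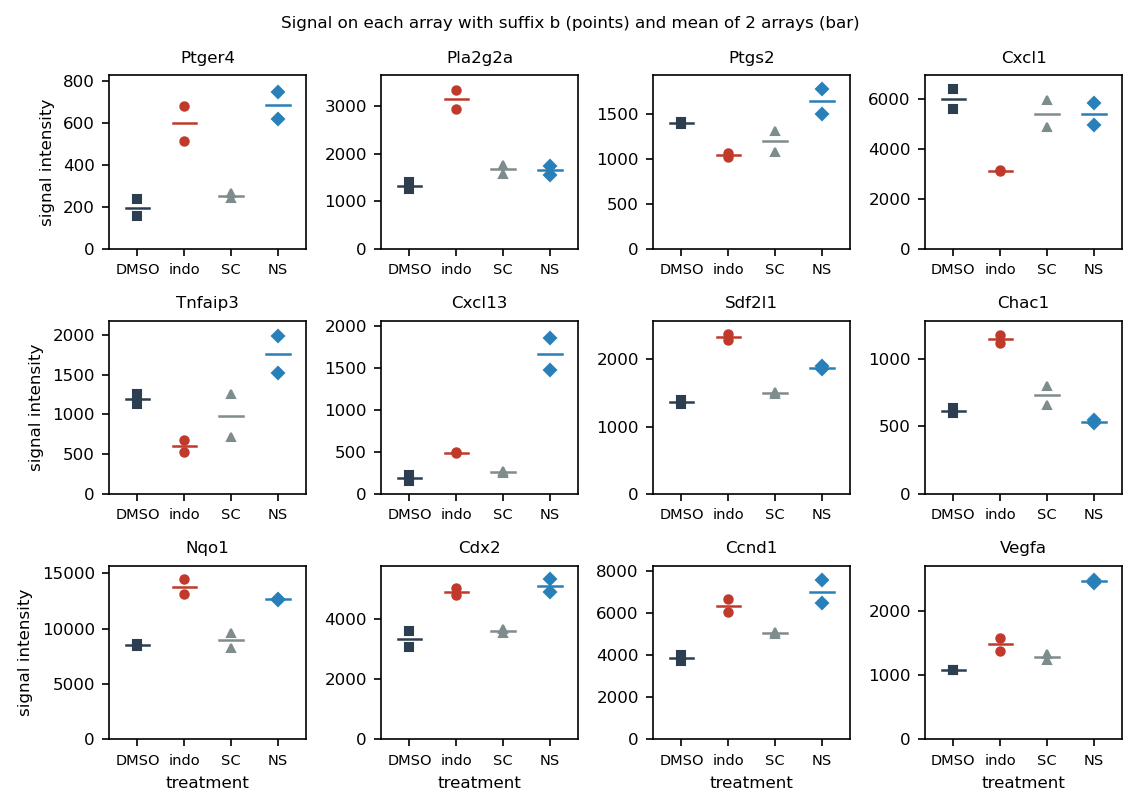
Signal intensity on each of the 8 arrays with suffix b (points) and the mean of each pair (bars) for 12 genes, by treatment: DMSO, indomethacin (indo), SC-560 (SC) and NS-398 (NS). Ptger4, Cdx2 and Ccnd1 are high with both indomethacin and NS-398, Pla2g2a and Chac1 are high with indomethacin alone among the 4 treatments, and Cxcl13 and Vegfa are highest with NS-398.

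Among all genes, Fabp4, a carrier of fatty acids, had the largest rise. Its signals were 1049 and 1031 with indomethacin and 176 and 143 with DMSO, with no overlap, as for 57.3% of all genes in either direction, and the log2 difference was 2.39 ± 0.12 (adjusted p 2.79e-06). Signals with NS-398 were 898 and 1021 and did not differ from indomethacin by the test (difference 0.11 ± 0.12, adjusted p 0.628). Fabp4 is also a marker of adipocytes. The defining adipocyte genes Adipoq, Plin1, Lep, Cidec and Pparg stayed under 100 on all 4 arrays, and 8 of 12 markers of that cell type on the array did so.

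The 15 genes with the largest rise and the 15 with the largest fall were taken from called genes whose higher group averaged 200 or more and whose groups did not overlap. Agr2, Smim5, F13a1 and Lingo2 were under 100 on both arrays of the lower group, and were tested only because the other group was high. Agr2, a disulfide isomerase of secretory epithelia, went from 75.5 and 91.3 to 378 and 338 (1.61 ± 0.16), and Gpr15lg, a secreted ligand of the receptor GPR15, from 381 and 391 to 1219.8 and 1309 (1.59 ± 0.12). Clu, the extracellular chaperone clusterin, had signals of 11064 and 10620.2 with indomethacin against 3652 and 4076 with DMSO (1.48 ± 0.073), 4602 and 5342 with SC-560 and 8181 and 8093 with NS-398. It was thus also higher than with NS-398, by 0.41 ± 0.073 (adjusted p 0.00487). A further probe set of Clu gave a difference of 0.34 and was not called. The Wnt ligand Wnt2 rose by 1.34 ± 0.15, and a second probe set of Wnt2 was called at 1.36. Its adjusted p of 0.0501 in the 14-array fit was not a call.

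Lbp, a secreted protein that binds bacterial lipopolysaccharide, and the chemokine Cxcl13 rose less with indomethacin than with NS-398. Lbp had signals of 1074 and 1076 against 397 and 445 with DMSO and 2119.8 and 2018 with NS-398, a difference of 1.26 ± 0.088 from DMSO and -0.91 ± 0.088 from NS-398. Signals of Cxcl13 were 492 and 495 with indomethacin, 152 and 227 with DMSO and 1864 and 1478 with NS-398. Neither was called in the 14-array fit, with adjusted p-values of 0.0746 for Lbp and 0.629 for Cxcl13. The remaining rises among the 15 largest were Car1, a carbonic anhydrase, Raph1, which regulates actin at the leading edge, the adhesion molecule Ceacam1, the aldehyde dehydrogenase Aldh3a1 and Smim5, with log2 differences from 1.03 to 1.16. Car1 was not called without the intensity trend. All of these but Smim5 were also higher than with NS-398. Raph1, for example, had signals of 4009 and 3721 with indomethacin, 2169 and 2102 with NS-398 and 1929 and 1597 with DMSO.

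**Figure D3:**
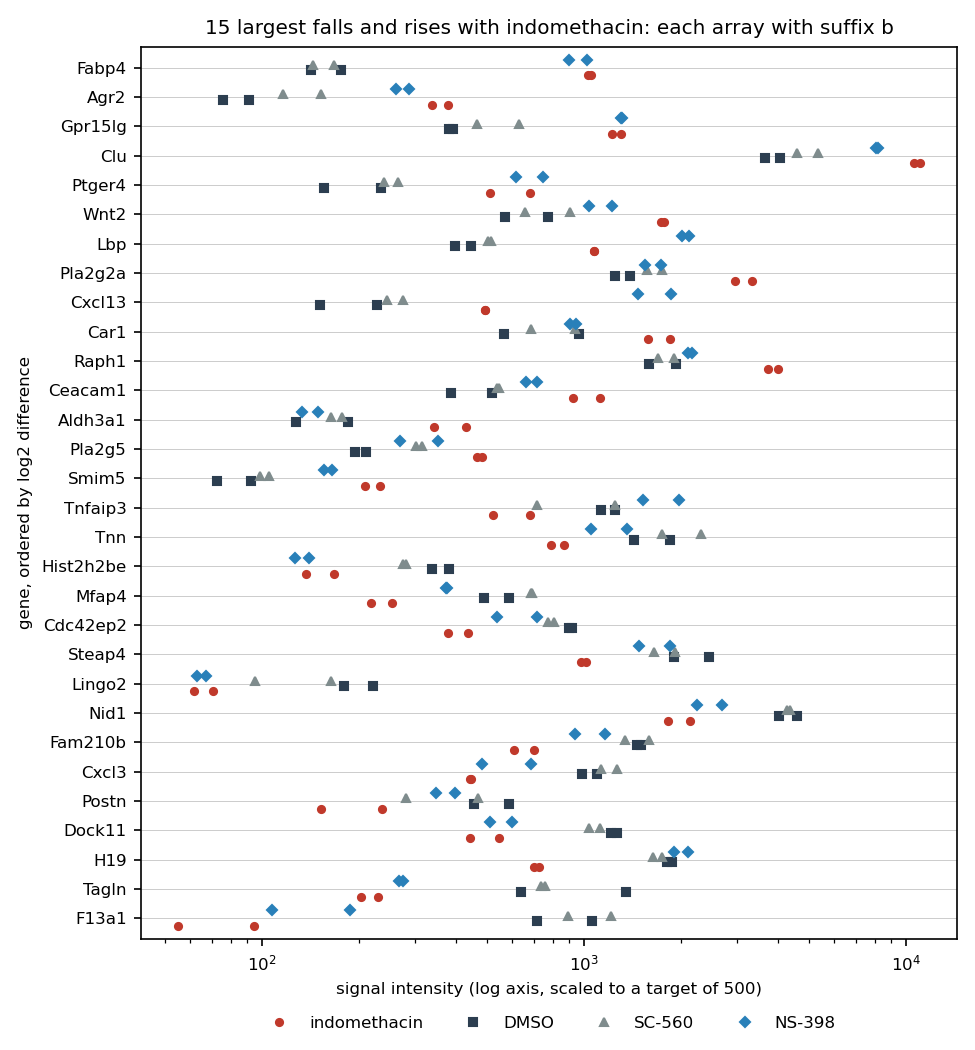
Signal intensity (horizontal log axis) on each of the 8 arrays with suffix b for the 15 genes with the largest rise and the 15 with the largest fall with indomethacin, ordered by log2 difference (vertical axis). In all 30 genes both indomethacin arrays (red circles) lie outside the range of the DMSO and SC-560 arrays, as they do in 34.4% of all genes, and for the DMSO arrays the choice of the genes required it.

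F13a1, the transglutaminase subunit of coagulation factor XIII, fell most. Its signals were 55 and 94.3 with indomethacin and 1059.8 and 715 with DMSO, so that both indomethacin arrays lay below 100 and the size of the fall (-2.90 ± 0.24, adjusted p 8.46e-05) depends on the value added before taking logarithms. A second probe set of F13a1 was called at -2.25. Tagln, which binds actin in smooth muscle, had signals of 203 and 229.8 with indomethacin against 1349 and 639 with DMSO (-1.88 ± 0.24), the 2 DMSO arrays themselves being far apart. H19, an imprinted noncoding RNA, had 727 and 699.8 against 1815 and 1883 (-1.31 ± 0.078), and with NS-398 and SC-560 it had 1905 and 2109 and 1746 and 1642. The test against NS-398 gave -1.43 ± 0.078 for H19 (adjusted p 5.21e-06). Dock11, an activator of the GTPase Cdc42, fell from 1267 and 1219 to 544 and 444 (-1.25 ± 0.11), and Cdc42ep2, an effector of Cdc42, from 917 and 901 to 436 and 379.5.

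Matrix proteins made up 4 of the remaining falls: periostin (Postn, -1.24 ± 0.22), the basement membrane linker nidogen-1 (Nid1, -1.11 ± 0.095), Mfap4 of elastic fibres (-1.04 ± 0.12) and the tenascin Tnn (-0.94 ± 0.15). The others were Cxcl3, Fam210b, Lingo2, the metalloreductase Steap4, the histone gene Hist2h2be and Tnfaip3, with log2 differences from -1.15 to -0.94. Of the 30 genes with the largest changes, 27 were called whichever 1 of the 4 arrays was left out. The exceptions were Postn (adjusted p 0.0706 without DMSO array 1b and 0.0523 without indomethacin array 1b), Lingo2 (0.102 without DMSO array 1b and 0.0663 without indomethacin array 2b) and Tnfaip3. For Tnfaip3 the removal of DMSO array 1b, DMSO array 2b or indomethacin array 2b gave 0.0837, 0.0896 and 0.14. Against SC-560, 27 of the 30 were called, against 6.32% of all genes, those 3 being the exceptions. The 30 genes were chosen by their values on the same indomethacin arrays, so that this count is no separate support. Postn, Tnn and Tnfaip3 were not called without the intensity trend.

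Chaperones and folding enzymes assist and check protein folding in the ER. Of 30 tested, 14 were higher, none was lower and 16 were not called, against 4.59% higher among all genes, and the median of the list was 0.22. In the comparison with NS-398, which uses no DMSO array, 12 of the 30 were higher and 2 lower, against 4.58% and 6.62% of all genes. Sdf2l1, a cofactor of ER chaperones, had signals of 2377 and 2284 with indomethacin against 1397 and 1340.5 with DMSO (0.75 ± 0.068), 1517 and 1488 with SC-560 and 1895 and 1849.5 with NS-398. Indomethacin thus exceeded every other array, and the pairs lay closer together than the groups. Among all genes, 34.4% had both indomethacin arrays outside the range of the DMSO and SC-560 arrays in either direction. Creld2, another secretory pathway protein that rises in ER stress, had 2579 and 2314 against 1329.6 and 1487 (0.78 ± 0.086). The disulfide isomerase Pdia4 rose by 0.52 ± 0.056 and the chaperone Hsp90b1 by 0.43 ± 0.048. Dnajc3, an inhibitor of the kinase PERK, rose by 0.54 ± 0.084 and exceeded its level with NS-398 by 0.79 ± 0.084.

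Hspa5, the master chaperone BiP, changed little in proportion but from a high level, with signals of 16542 and 16159 against 13872 and 13877 (0.24 ± 0.040, adjusted p 0.00525). With DMSO array 1b left out Hspa5 had an adjusted p of 0.0537, and without the intensity trend one of 0.123. Ero1a and Ero1b, oxidases that regenerate the disulfide isomerases, rose by 0.52 ± 0.10 and 0.80 ± 0.20, and Ero1a was lower with indomethacin than with NS-398 (-0.48 ± 0.10). The call of Ero1b against DMSO was lost on removal of any 1 array (adjusted p 0.0983 to 0.15) and that of Ero1a on removal of any but DMSO array 2b (0.0558 to 0.0862). The count of members called higher was 7 on removal of DMSO array 1b or indomethacin array 2b, 10 on removal of DMSO array 2b and 11 on removal of indomethacin array 1b. It was 10 in the 14-array fit and 6 without the intensity trend. The machinery of translocation and degradation in the ER had few calls: of 32 genes tested, Herpud1, a degradation factor (0.56 ± 0.063), and Ssr3, a subunit of the translocon-associated complex (0.27 ± 0.053), were higher. Ssr3 lost its call on removal of any 1 array and without the intensity trend.

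Promoters of these genes were searched for the ER stress element, the sequence that ATF6 and NF-Y recognise, since several members moved together. The motif was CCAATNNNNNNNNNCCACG on either strand in the 300 bases from 250 before to 50 after each RefSeq gene start of the assembly GRCr8. It was found at 7 of 25 chaperone genes with a promoter in the table and at 6 of the 11 among them that were called higher. Over all genes the share was 21 of 27457 (0.0765%), and over the genes tested 15 of 7823 (0.192%). A match is a stretch of letters and not a measured binding site, and matches also stood at the listed genes Canx, Xbp1 and Birc5, which were not called. The share of a list with a match is a property of the genes put on the list and no result of the drug. The stretches at 5 of the called genes are shown, to let their agreement and spacing be seen, 5′ to 3′ on the strand of the gene with the motif in capitals, which reads in reverse complement at Creld2, Calr and the first stretch of Hsp90b1.
Creld2, chr7:121789209-121789287, plus strand: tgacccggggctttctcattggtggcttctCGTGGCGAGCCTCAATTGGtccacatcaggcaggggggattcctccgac
Dnajc3, chr15:102432504-102432582, plus strand: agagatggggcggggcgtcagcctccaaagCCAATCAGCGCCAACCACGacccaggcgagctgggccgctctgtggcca
Hspa5, chr3:38452943-38453015, plus strand: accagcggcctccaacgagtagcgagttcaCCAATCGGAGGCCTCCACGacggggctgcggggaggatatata
Calr, chr19:40213117-40213183, plus strand: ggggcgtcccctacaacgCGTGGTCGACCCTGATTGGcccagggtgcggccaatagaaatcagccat
Hsp90b1, chr7:23012317-23012395, minus strand: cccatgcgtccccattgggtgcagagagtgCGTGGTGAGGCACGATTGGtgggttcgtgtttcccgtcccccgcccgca
Hsp90b1, chr7:23012421-23012499, minus strand: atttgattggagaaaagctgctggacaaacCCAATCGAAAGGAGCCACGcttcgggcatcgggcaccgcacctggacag
Hsp90b1 carried 2 matches, 72 and 176 bases before its start, and that of Hspa5 began 43 bases before the start. The match of Calr, the chaperone calreticulin, began 232 bases before the start. Calr rose by 0.28 ± 0.055, and its adjusted p was 0.0568, 0.0671 and 0.102 when DMSO array 1b, DMSO array 2b or indomethacin array 2b was removed.

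The unfolded protein and ATF4 responses have their own sensors and regulators. Of 23 genes of the stress sensors and regulators, 7 were higher and none was lower. Chac1, which degrades glutathione, had signals of 1116 and 1176 with indomethacin against 636 and 596 with DMSO (0.84 ± 0.10, adjusted p 0.000828), 659 and 798 with SC-560 and 521 and 546 with NS-398. Its indomethacin arrays were above all others, and 34.4% of all genes had them outside the DMSO and SC-560 arrays in either direction. Trib3, a pseudokinase that restrains ATF4, rose by 0.83 ± 0.15, but had an adjusted p of 0.0604 without indomethacin array 2b. Atf4 itself had 10600.4 and 10736 against 8446 and 8472 (0.33 ± 0.059), with adjusted p-values of 0.0596 and 0.0551 without DMSO array 1b or indomethacin array 2b. Ddit3, the gene of the stress factor CHOP, was not called, with 917 and 815 against 819.8 and 827. On removal of DMSO array 1b or 2b the number called was 2 or 5, and on removal of indomethacin array 1b or 2b it was 4 or 1. There were 6 called in the 14-array fit and 1, Chac1, without the intensity trend.

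Of 19 genes of amino acid synthesis and transport, 8 were higher and 1 was lower. Slc3a2, the heavy chain shared by several amino acid transporters, had signals of 6921 and 6946 against 4240.2 and 4239 (0.70 ± 0.049, adjusted p 3.35e-05). The pairs nearly coincided and the groups were far apart. The neutral amino acid transporter Slc1a4 rose by 0.68 ± 0.081 and the transaminase Gpt2 by 0.48 ± 0.074, while Cth, which makes cysteine, fell (-0.49 ± 0.13), a call lost on removal of any 1 array. Against NS-398, 10 of the 19 were higher and 1 lower. Of 19 cytosolic aminoacyl-tRNA synthetases, which charge transfer RNA, 5 were higher and Vars1 was lower against DMSO, and 9 were higher and none lower against NS-398. Examples against DMSO are Mars1 (0.33 ± 0.070) and Cars1 (0.31 ± 0.074). Against DMSO the synthetases were the weaker of these lists: with 1 of the 4 arrays left out, none or 1 was called higher. For the amino acid genes 3 were called higher without DMSO array 1b or indomethacin array 2b and 5 without either of the other arrays. The 14-array fit called 5 amino acid genes higher, without Gpt2 (adjusted p 0.366), and 2 synthetases, and the fit without the trend called 3 and none.

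The amino acid response element, which ATF4 binds with a C/EBP partner, was searched as TGATGNAA in the same promoters. It was present at 1141 of 27457 genes (4.16%) and at 155 of 7823 genes tested (1.98%). Among the listed genes it was found at 5 of 20 stress regulators, 4 of them among the 6 called higher, at 2 of 17 amino acid genes and at 7 of 17 synthetases. At other genes called higher, such as Ppp1r15b, Slc7a1 and Yars1, the motif lay on the strand of the gene, so that its orientation was not fixed. The stretches at 5 genes called higher, each with the motif in capitals, are shown for comparison of the core letters. In each of these 5 the motif lies on the strand opposite to the gene. Herpud1 among them is of the list of ER translocation and degradation, outside the counts above.
Chac1, chr3:126795934-126796001, plus strand: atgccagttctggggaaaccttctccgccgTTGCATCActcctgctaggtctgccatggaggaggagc
Trib3, chr3:161275534-161275584, minus strand: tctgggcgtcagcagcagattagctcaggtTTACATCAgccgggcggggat
Herpud1, chr19:10614854-10614921, minus strand: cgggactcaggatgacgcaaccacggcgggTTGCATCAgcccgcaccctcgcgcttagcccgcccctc
Slc1a4, chr14:98761760-98761812, minus strand: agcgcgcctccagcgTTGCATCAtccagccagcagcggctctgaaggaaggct
Mars1, chr7:65023754-65023800, minus strand: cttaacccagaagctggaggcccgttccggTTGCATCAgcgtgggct
The same stretch of letters stood at synthetase genes that were not called, such as Iars1 and Tars1. No match of 1 motif overlapped that of another at any listed gene.

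NRF2 drives genes of antioxidant defence, and its targets were called higher in 10 of 26 cases and lower in none, with a median of 0.21. Nqo1, a quinone reductase, had signals of 13112 and 14473 with indomethacin against 8383 and 8576 with DMSO (0.70 ± 0.067), 9581 and 8277 with SC-560 and 12582 and 12717 with NS-398. Akr1b8, an aldo-keto reductase, had 21472 and 22581 against 13783 and 14744 (0.63 ± 0.046). Aldh3a1, with 429.8 and 341 against 128 and 186 and 149 and 133 with NS-398, was above all other arrays with indomethacin. For 34.4% of all genes the indomethacin arrays lay outside those of DMSO and SC-560 in either direction. Heme oxygenase Hmox1 rose by 0.51 ± 0.14, a call lost on removal of any 1 array. In the direct comparison at 100 µM the list lay lower with indomethacin than with NS-398: 8 of 26 were lower and 2, Aldh3a1 and the exporter Abcc1, higher. The largest such difference was Gsta4, a glutathione transferase, with 1379 and 1528 with indomethacin, 1377 and 1507 with DMSO and 3268 and 3796 with NS-398 (-1.25 ± 0.089, adjusted p 3.15e-05). Of the targets 3 were called higher than with DMSO on removal of indomethacin array 2b, 5 on removal of either DMSO array and 8 on removal of indomethacin array 1b. The 14-array fit called 7 higher and the fit without the trend 5. The antioxidant response element, searched as TGACNNNGC, stood at 6 of 23 NRF2 targets, at 2 of the 8 called higher, and at 13.1% of all genes and 15.5% of the genes tested.

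Genes of lipid metabolism changed in smaller numbers. Of 24 targets of the PPAR receptors and genes of fatty acid handling 5 were higher and none lower. Besides Fabp4 these were the desaturase Scd, with 1305 and 1242 against 700.4 and 754 (0.77 ± 0.098), the mitochondrial carnitine transferase Cpt2 (0.53 ± 0.099), the thioesterase Acot2 and the receptor Ppard, the last pair outside the naming rule and named after their values were seen. Fabp4 and Scd were called with each of the 4 arrays dropped in turn, and the number of list members called was 2 on removal of array 1b of either group, 3 on removal of indomethacin array 2b and 4 on removal of DMSO array 2b. It was 2 in the 14-array fit, where Cpt2 was lost, and 3 without the trend. Of 19 genes of sterol synthesis, Insig1, Fdps and Cyp51 were higher by 0.27 to 0.30, and 2 of them were called on removal of DMSO array 2b. None was called on removal of any of the other arrays or without the trend.

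Chemokines draw leukocytes into inflamed tissue. Of 25 chemokines and inflammatory genes tested, 9 were lower, 2 were higher and 14 were not called, against 4.08% lower among all genes, and the median was -0.12. The list does not hold the chemokine Cxcl13 or Lbp, which were called higher and are described above among the largest rises. The counts thus leave both rises out and do not cover every chemokine. Cxcl2, among the lower genes, was under 100 on both indomethacin arrays and was tested only because it was high with DMSO. The neutrophil chemokine Cxcl1 had signals of 3149 and 3112 with indomethacin against 5626 and 6394 with DMSO (-0.93 ± 0.10, adjusted p 0.000469), 4874 and 5957 with SC-560 and 5862 and 4951 with NS-398. Both indomethacin arrays were below all 6 others. The share of all genes outside all 6 was not counted, and outside the DMSO and SC-560 arrays alone it was 34.4% in either direction. Cxcl3 fell by 1.15 ± 0.14, and 2 of its 4 further probe sets were called lower too. The monocyte chemokine Ccl2 had 263 and 281 against 576 and 494 (-0.86 ± 0.12) and 718 and 726 with NS-398.

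Regulators of NF-kB were among the lower genes. Nfkbiz had 453 and 521 against 879 and 921 (-0.83 ± 0.12) and was called whichever array was dropped. Nfkbia, the inhibitor IkB alpha, had 2380.0 and 2665 against 3319.8 and 3925 (-0.51 ± 0.10) and 5921 and 5815 with NS-398, but its adjusted p was 0.0752 and 0.0843 without DMSO array 2b or indomethacin array 1b. Tnfaip3, the ubiquitin-editing inhibitor A20, had 681 and 523 against 1133 and 1250.4. Compared directly with NS-398, 12 of the 25 were lower with indomethacin and 2 higher, with Tnfaip3 at -1.47 ± 0.21, Nfkbia at -1.20 ± 0.10 and Ccl2 at -1.26 ± 0.12. The 2 higher were the alarmin Il33 and the interferon-responsive chemokine Cxcl10. Il33 was intermediate on the arrays with suffix b, with 2528 and 2999 against 3491 and 3949.6 with DMSO and 1467 and 1427 with NS-398. Its call against DMSO was lost without DMSO array 2b or indomethacin array 1b, and without the trend (adjusted p 0.106). In the 14-array fit Il33 differed from DMSO by -0.016 (adjusted p 0.991). Cxcl10 and the acute-phase gene Hp were the 2 members higher than with DMSO. The call of Hp was lost on removal of any 1 array (adjusted p 0.0884 to 0.235) and that of Cxcl10 on removal of any but DMSO array 2b (0.0859 to 0.268). On removal of DMSO array 1b or 2b, 6 or 4 were called lower than with DMSO, and on removal of indomethacin array 1b or 2b, 5 or 7. In the 14-array fit 6 were lower and 1 higher, and without the trend 4 and none.

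**Figure D4:**
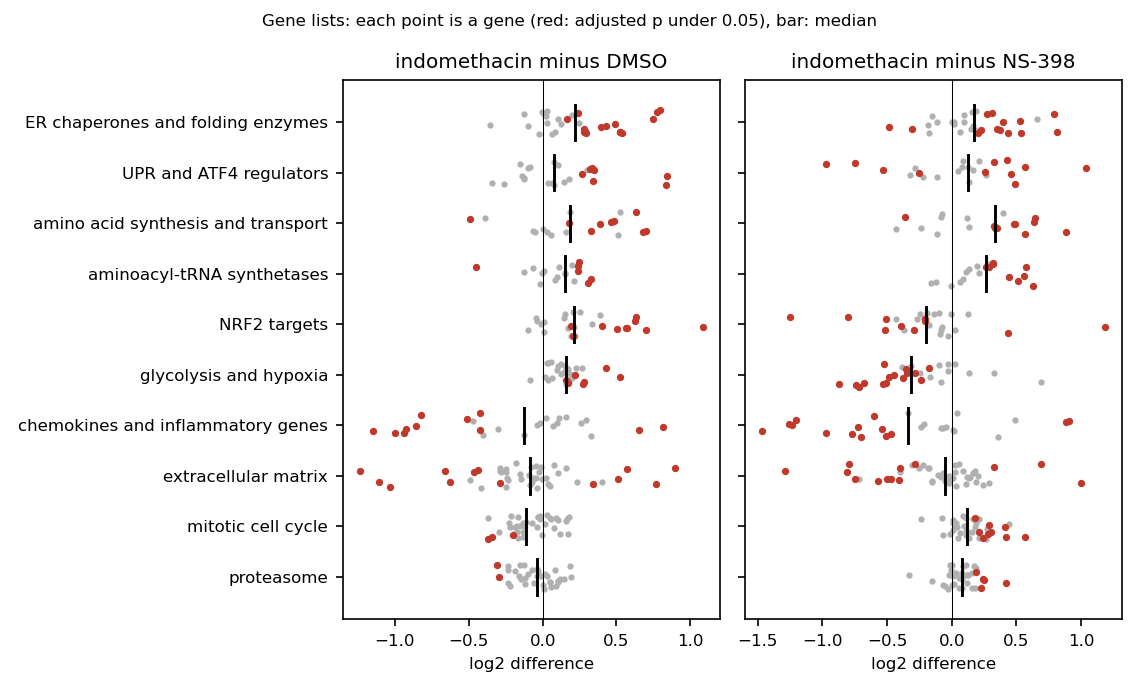
Log2 differences of the members of 10 gene lists (points, red where the adjusted p was under 0.05, with the median as a bar) for indomethacin minus DMSO on the left and indomethacin minus NS-398 on the right. ER chaperones lie mostly above 0 in both panels, with medians of 0.22 and 0.17, whereas NRF2 targets and glycolysis lie above 0 on the left and mostly below 0 on the right.

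The extracellular matrix changed in both directions. Of 45 genes 8 were lower and 5 higher. Besides Nid1, Postn and Mfap4, the falls included elastin, Eln, with 3010.0 and 2788 against 5129 and 3951 (-0.63 ± 0.099), and fibulin-2, Fbln2 (-0.46 ± 0.064). The rises included both collagen VI chains, Col6a1 with 3582 and 3486 against 1769.8 and 1996 (0.89 ± 0.089) and Col6a2 with 2318 and 2836 against 1522 and 1456 (0.77 ± 0.090). Osteopontin, Spp1, rose by 0.51 ± 0.055. The 2 nidogens went opposite ways, Nid2 rising from 3098 and 3484 to 4905 and 4922 (0.57 ± 0.069). Without either DMSO array 1b or indomethacin array 1b 5 matrix genes were called lower, and 4 or 5 were called higher whichever array was left out. In the 14-array fit 7 were lower and 2 higher, Col6a1, Col6a2 and Fbln2 being among those lost (adjusted p 0.0623, 0.327 and 0.131), and without the trend 2 were lower and 4 higher. Of 21 proteases and inhibitors 3 were higher, Ctsl, Timp1 and Timp4, and Serpinf1 was lower. Timp4 was under 100 on both DMSO arrays and was tested only because it was high with indomethacin. Each of these 4 lost its call without at least 2 of the arrays. In the 14-array fit and without the trend Timp4 alone of them was called.

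Contractile and adhesive genes, which bear on cell movement, were mixed. Of 14 smooth muscle-type genes 4 were lower and none higher, with caldesmon (Cald1, -0.48 ± 0.072) and tropomyosin (Tpm1, -0.36 ± 0.058) beside Tagln. Without DMSO array 1b 2 of these were called, and without the trend 1. Of 43 actin regulators 4 were lower and 3 higher, against 4.08% and 4.59% of all genes. Dock11, the kinase Pak1 (-0.56 ± 0.11) and ezrin (Ezr, -0.36 ± 0.051) were lower, and Raph1 and the capping proteins Gsn (0.25 ± 0.059) and Capg (0.22 ± 0.052) were higher. The calls of Pak1 and Gsn were lost without DMSO array 1b or indomethacin array 2b, and that of Capg on removal of any 1 array. Gsn was not called in the 14-array fit either (adjusted p 0.291). Without the trend 1 actin regulator was lower and 1 higher, and Ezr was lost. Of 26 integrin and focal adhesion genes 3 were higher and 3 lower, against 4.59% and 4.08% of all genes. Itgb4, the hemidesmosomal integrin subunit, had 1771 and 1929 against 852 and 1098 (0.90 ± 0.11, adjusted p 0.0007), and its partner Itga6 rose by 0.25 ± 0.067. The focal adhesion protein Parva fell by 0.41 ± 0.07. Of the 6, Itgb4 alone was called whichever array was dropped, and it was the 1 called without the trend. In the 14-array fit 1 was higher and 2 were lower. Of 8 calpain system genes, a protease system of cell movement, the inhibitor Cast was higher (0.25 ± 0.063) and Capn7 lower (-0.29 ± 0.070). Both calls were lost on removal of any 1 array, in the 14-array fit and without the trend.

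Epithelial identity was followed through its markers. Cdx2, a transcription factor of intestinal identity, had 4773 and 5007 with indomethacin against 3072 and 3607 with DMSO (0.55 ± 0.077, adjusted p 0.00183) and 4871 and 5314 with NS-398. Krt8 rose by 0.22 ± 0.051, a call lost on removal of any 1 array, and they were the 2 called of 8 epithelial markers tested. Cdx2 was not called in the 14-array fit (adjusted p 0.337), and Krt8 was not called without the trend (0.147). Of 18 secreted epithelial and survival proteins on the array 8 were tested, and Agr2, Clu, Tff2, Scara5 and Wfdc1 were higher. Agr2 and Tff2 were under 100 on both DMSO arrays and were tested only because they were high with indomethacin, so the number called says little of the list. In the 14-array fit 3 were called, without Tff2 and Wfdc1. The trefoil peptide Tff2 had 192 and 109.9 against 6.98 and 22.2 with DMSO, the latter near the bottom of the range, and 421 and 301 with NS-398. With DMSO array 1b left out the adjusted p of Tff2 was 0.0511. Scara5, a ferritin receptor, had 891 and 884 against 519.5 and 513 and 1526 and 1413 with NS-398 (0.73 ± 0.088 from DMSO, -0.70 ± 0.088 from NS-398). Scara5 was thus between DMSO and NS-398, as were Wfdc1 and Tff2.

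Genes of proliferation and growth control showed few calls. The G1 cyclin Ccnd1 had 6667 and 6052 with indomethacin against 3718 and 4032 with DMSO (0.71 ± 0.078) and 6481 and 7602 with NS-398. With Fas, Plk2 and Ccng2 it made up the 4 of 21 genes of G1 and p53 control that were higher, and 2 were called without indomethacin array 2b, 3 without the trend and 1 in the 14-array fit. Of 39 mitotic genes 3 were lower, against 4.08% of all genes, and the median was -0.12. These were Kif23, Ect2 and Racgap1, all needed for the division of the cell body. Each of the 3 lost its call without at least 2 arrays, in the 14-array fit and without the trend. Second probe sets of Kif23 and Racgap1 gave differences of 0.01 and 0.00. In the direct comparison with NS-398, 9 of the 39 were higher with indomethacin and none was lower. None of 40 DNA replication genes was called in limma against DMSO (9 at an unadjusted p under 0.05), and 1 was called with DMSO array 2b left out. Polyamines support the growth of intestinal cells, and 3 of 12 genes of their metabolism were lower. Arg1, which makes ornithine, had 762 and 839 against 1682 and 1317 (-0.86 ± 0.11), and Odc1, which turns ornithine into putrescine, had 1866 and 1768 against 2935 and 2572 (-0.58 ± 0.081). Both were called whichever array was dropped, and Mat2a, the third, was not. Odc1 was not called in the 14-array fit (adjusted p 0.159) and Arg1 was the 1 gene called.

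In growth factor pathways the changes were divided. Of 10 genes of the IGF axis and imprinted genes, H19, the IGF-binding protein Igfbp2 (-0.67 ± 0.085) and the zinc finger gene Plagl1 (-0.58 ± 0.054) were lower, and all 3 were called whichever array was dropped, in the 14-array fit and without the trend. Of 27 TGF-beta genes 5 were higher and 5 lower. No rise kept its call with each of the 4 arrays left out in turn, and the rise that kept it was a different gene each time. Of the falls, Tgfb3 and Tgfbi kept their calls throughout. None was higher and 4 were lower in the 14-array fit, and none and 2 without the trend. The ligand Tgfb3 fell by 0.63 ± 0.09 and the TGF-beta-induced gene Tgfbi by 0.77 ± 0.08. The BMP target Id1 rose by 0.46 ± 0.092, with its call lost without DMSO array 2b or either indomethacin array. Of 30 EGF receptor ligands and immediate early genes 5 were higher and Jun was lower. Of the rises 1 was called without DMSO array 1b or indomethacin array 1b and 3 without either of the others, and none of the 30 was called in the 14-array fit. Dusp6, a phosphatase induced by ERK, had 4026 and 4117 against 2544 and 2873 (0.58 ± 0.076) and an adjusted p of 0.0721 in the 14-array fit. Compared with NS-398, 13 of these 30 were lower with indomethacin and Egr1 was higher. Nr4a1, an orphan nuclear receptor, had 509 and 514 with indomethacin, 494 and 698 with DMSO and 1938 and 1634 with NS-398 (-1.71 ± 0.14, adjusted p 5.32e-05).

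Glycolysis and the hypoxia response also separated the drugs. Against DMSO, 7 of 27 were higher, such as Eno1 (0.27 ± 0.044), Vegfa (0.43 ± 0.081) and Aldoa (0.22 ± 0.042), and 26 of 27 lay above 0. None was called without DMSO array 1b or indomethacin array 2b, and 3 were called without either of the others. The 14-array fit called Vegfa alone, and the fit without the trend none. Against NS-398 15 of the 27 were lower with indomethacin and none was higher. The growth factor Vegfa had 1381 and 1574 with indomethacin, 1078 and 1082 with DMSO and 2444 and 2481 with NS-398 (-0.72 ± 0.081 between the drugs). Of 40 genes of the respiratory chain Cox5a was the 1 called against DMSO, of 21 heat shock proteins 2 were higher (Hspb1, 0.52 ± 0.064, and Cryab, 0.42 ± 0.055) and 2 lower, and of 35 proteasome subunits 2 were lower. Among all genes 4.59% were higher and 4.08% lower. The calls of Cox5a and of the proteasome subunits Psmd12 and Psma1 were lost on removal of any 1 array, in the 14-array fit and without the trend. Hspb1 and Cryab were not called in the 14-array fit (adjusted p 0.15 and 0.198).

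Over all genes, 1039 of 9281 (11.2%) differed between indomethacin and NS-398, both at 100 µM, 425 higher (4.58%) and 614 lower (6.62%) with indomethacin. Of the 30 genes with the largest changes from DMSO, 17 were called in this comparison. They were chosen by their values on the same indomethacin arrays, so that this count too is no separate support. At 1 µM, SC-560 was given at a lower dose than the others, so that drug and dose cannot be told apart. Against it 587 genes (6.32%) were called, 308 higher (3.32%) and 279 lower (3.01%) with indomethacin. The ER chaperones had 13 of 30 higher in that comparison, and the NRF2 targets 7 of 26. The comparisons with DMSO, NS-398 and SC-560 share the indomethacin arrays.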

How the data were processed

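Per the labels, RNA of IEC-6 cells was amplified in 2 rounds and hybridised to Affymetrix arrays with 1 colour. The authors deposited intensities on a linear scale for 31099 probe sets, scaled to a target signal of 500 per the labels' description. Which software summarised the probes is not given in the sources used here. Precision is limited by the number of arrays.

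Gene names came from the annotation of the platform (20832 with 1 symbol, 436 with several, 9831 not listed), updated through RefSeq for 20764. The 57 controls were left out. The log2 of signal + 50 was fitted with limma 3.58.1 under R 4.3.3, with 1 mean per group, an intensity trend and no block, on the 8 arrays with suffix b (4 residual degrees of freedom, 7.64 from the prior). Where a gene had several probe sets, that of highest mean log2 signal stood for it. Lists are described by counts and medians, without a set test. Tables and figures were made in Python 3.11.15.

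The genes named are, by size of difference, the top 15 called higher and the top 15 called lower whose higher group averaged 200 or more and whose groups did not overlap, predicted loci passed over, up to 3 called members per list and direction, and Ptgs1 and Ptgs2. Further list members were named after their values were seen. The comparison, the members and the 28 pathway lists were chosen with earlier results of these data known. Alternatives covered the pseudocount, the filter, scaling, the arrays in the fit, the trend, a replicate block and each array left out.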

Additional observations from a re-analysis of the deposited data

How the results depend on the processing

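For indomethacin against DMSO, 170 called genes are list members or named by the rule, and each kept its direction under every alternative that gave it a value (a mean signal of at least 200 left 163). A change of the filter, the trend or the empirical Bayes step leaves the difference itself as it is, so the direction could not change there. Nor could it on the 4 arrays alone or with the replicate block, where the difference between group means is the same. Many calls were lost: 102 without the intensity trend, 76 on all 14 arrays with a term for the label set, 68 without the filter on low signals, 18 on the 4 arrays alone, 17 with the replicate block and 62 to 93 with 1 of the 4 arrays left out. Of the 113 genes that the rule names, 60 were called whichever 1 of the 4 arrays was left out, while 55, 45 and 33 lost their call without the trend, on all 14 arrays and without the filter. The count of 1256 called probe sets for indomethacin against DMSO was 1249 and 1257 with a pseudocount of 16 or 200, 1202 after quantile normalization, 1257 after centring on the median, 1290 with robust empirical Bayes and 1025 on the 4 arrays alone. It moved to 353 at an adjusted p under 0.01, 521 without the filter on low signals, 345 without the intensity trend and 610 on all 14 arrays with a term for the label set, of which 281 were higher and 329 lower. Leaving out 1 array gave 294 to 697, with fewer samples in the fit. For indomethacin against SC-560 the count of 886 became 186 to 352 with 1 array left out, and for indomethacin against NS-398 the count of 1660 became 674 to 1030. Quantile normalization changed the split of the latter to 737 higher and 800 lower. Arrays with the same digit did not deviate together (correlations between groups from -0.084 to 0.08), so that no pairing by digit was seen. This check cannot tell whether the digit names a shared culture or run, and the sources used here do not explain the digit. With it as a replicate block 1072 probe sets were called against DMSO, 780 against SC-560 and 1548 against NS-398. With 2 arrays per group, pooled cultures and no second experiment, a gene that was not called may still differ.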

Other observations

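Genes outside the lists also changed, and the following were chosen after their values were seen. Slc20a1, a sodium-phosphate transporter, had signals of 3902 and 3987 with indomethacin and 2071 and 2249.9 with DMSO, and rose by 0.85 ± 0.074 (limma adjusted p 0.000115). Ramp1 and Ramp2, accessory proteins of the calcitonin family of receptors, rose by 0.80 ± 0.14 and 0.77 ± 0.12. The gap junction gene Gja5 rose by 0.98 ± 0.13, and the aldo-keto reductase Akr1b7, a relative of Akr1b8, by 1.08 ± 0.17. Inhbe, an activin subunit that is induced in ER stress, had 148 and 139 against 70.6 and 27.1, values around the limit of 100 for testing, with a log2 difference of 1.00 ± 0.26 and an adjusted p of 0.0381. Inhbe was tested only because it was high with indomethacin.

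Among the falls outside the lists, Selenow, a selenoprotein, had 1988 and 2199.7 with indomethacin and 3763 and 3649 with DMSO (-0.81 ± 0.072). Gpnmb, a transmembrane glycoprotein, had 2709 and 2678 against 4424 and 4215 (-0.67 ± 0.053). The pantetheinase Vnn1 and the sialomucin Podxl also fell (-0.77 and -0.67). Of the 1256 called probe sets, 235 had no gene name here. Called genes had 403 further probe sets tested, of which 343 had the same direction, 86 were called in it and 4 were called in the opposite direction.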
